A study of Rattus norvegicus with 12 samples.

Results

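Passage through the G1 phase of the cell cycle is set by D-type cyclins, which bind and activate the kinases CDK4 and CDK6, and by inhibitors of these kinases. The mRNAs of 10 such genes were followed here in atrial fibroblasts treated with angiotensin II (AngII) and a mitochondrial peptide, out of 22850 features in the tables. They are the D-type cyclins Ccnd1, Ccnd2 and Ccnd3, the kinases Cdk4 and Cdk6, the inhibitors Cdkn1a, Cdkn1b and Cdkn1c of the CIP/KIP family, and the inhibitors Cdkn2b and Cdkn2c of the INK4 family. The genes were taken by symbol. The group was chosen by its role in G1 and by the measured difference of Ccnd1 between the 2 peptides, so that difference is described below without a test. All 10 were found, each listed once under its symbol, and all 10 had enough counts to be tested in every comparison.

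Growth factors raise D-type cyclins in quiescent cells, and the cyclin-kinase complexes phosphorylate the retinoblastoma protein, which releases E2F transcription factors for the genes of S phase. INK4 proteins bind CDK4 and CDK6 alone and keep the cyclins away, whereas CIP/KIP proteins bind cyclin-kinase complexes and can either help to assemble them or block them. Cardiac fibroblasts divide little in the resting heart and enter the cycle when they are activated by signals such as AngII.

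The study asked how HNG, an analogue of the peptide humanin, and MOTS-c, a peptide encoded in mitochondrial DNA, alter the transcriptome of AngII-stimulated cells. The cells were primary fibroblasts from the atria of Sprague-Dawley rats 1 to 3 days old, enriched by their faster adhesion to the dish and not sorted, and RNA was sequenced from 12 samples, 4 per treatment. The AngII group received 1 μmol/L AngII for 48 h. The AngII+HNG group received the same AngII after 10 μmol/L HNG given 1 h earlier, and the AngII+MOTS-c group after 5 μmol/L MOTS-c given 1 h earlier. Medium with 2% FBS was shared by all groups, and the peptide doses differed. Cells without AngII were not analysed here, so the effect of AngII itself on these genes could not be measured.

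Each library held 27960586 to 38322354 counted reads, and values are given as CPM, counts scaled to a common library size with TMM factors that lay between 0.990 and 1.01. At this depth 3 counts equal 0.0786 to 0.107 CPM, far below the level of all 10 genes, a limit that covers counting error only. Pairs of libraries within a treatment had a chi-square per gene of 4.36 to 19.4, where counting noise alone gives about 1, so none was one library deposited again. This does not tell separate cultures from separate libraries of one culture. The highest values all involved AngII+HNG replicate 3, and without it the highest was 8.97, so the HNG difference of each of the 10 genes is given with and without it. The deposited design text names the samples biological replicates, but nothing in the sample labels says that they came from separate cultures, and p-values measure the spread between these samples, which may be in part technical. Within each treatment, the library names of replicates 2 and 3 hold one number in common, and if it marks one preparation of cells, each treatment holds 3 preparations and not 4. Ccnd1 with HNG was called as well when these replicates were summed (log2 0.57, edgeR adjusted p = 0.00150). Fibroblast genes were abundant in every library, with 9 of 9 markers detected and Col1a1 between 22848 and 26750 CPM. Markers of cardiomyocytes were also present, with a sum over 10 genes of 5541 to 7354 CPM.

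Ccnd1, the D-type cyclin that responds most directly to growth factor signals, was the gene of the group that rose with HNG. Its level was 129, 135, 125 and 111 CPM in AngII replicates 1 to 4. In the AngII+HNG replicates it was 192, 199, 172 and 170.1 CPM, and in the AngII+MOTS-c replicates 111, 123, 118 and 108 CPM. Every AngII+HNG library lay above every library of the other treatments, whereas the AngII and AngII+MOTS-c libraries overlapped. The mean was 125 ± 9.94 CPM with AngII, 183 ± 14.4 with AngII+HNG and 115 ± 6.87 with AngII+MOTS-c (SD, n = 4 each).

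Against AngII alone, Ccnd1 was 1.47-fold higher with HNG (95% interval 1.34 to 1.62), a log2 difference of 0.56 with a standard error of 0.064 (edgeR quasi-likelihood test, Benjamini-Hochberg adjusted p = 4.57e-04). Without AngII+HNG replicate 3 the log2 difference was 0.59 with an adjusted p of 2.63e-04 in the same test, and over 18 alternatives the adjusted p ran up to 0.00315. Ccnd1 was the 1 gene of the 10 called in this comparison, in which 5.98% of the 14524 genes tested were called at an adjusted p below 0.05 in either direction. It was also the 1 of 10 whose groups did not overlap, against 13.6% of all genes. A total of 494 genes were called higher, and Ccnd1 was the 34th of all genes in order of p and the 110th of those 494 in order of fold change. The median size of a called log2 change was 0.31. Because this comparison shares the AngII+HNG libraries with the difference that led to the choice of Ccnd1, it is not an independent test of it.

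With MOTS-c the mean of Ccnd1 was 0.921 times that with AngII alone (95% interval 0.847 to 1.00), a log2 difference of -0.12 with a standard error of 0.056 that did not pass the threshold (edgeR, adjusted p = 0.924, unadjusted p = 0.0509). All 4 AngII+MOTS-c libraries lay below the mean of the AngII libraries, but AngII replicate 4, at 111 CPM, was as low as the AngII+MOTS-c group. The log2 difference ranged from -0.17 to -0.081 when single libraries were left out, and its largest size was reached without AngII replicate 4. This comparison shares the AngII+MOTS-c libraries with the difference by which Ccnd1 was chosen, so it is not an independent test either.

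Between the peptides, Ccnd1 was 1.60-fold higher with HNG than with MOTS-c, a log2 difference of 0.68 with a standard error of 0.059. This is the difference by which the gene was chosen, and it stands as a description. Libraries with the same replicate number gave ratios of 1.73, 1.62, 1.47 and 1.58, of which the first joins libraries whose names carry different numbers, 1 for AngII+HNG and 2 for AngII+MOTS-c. Among 14448 genes, 12.5% had no overlap between AngII+HNG and AngII+MOTS-c libraries in either direction, and of the 10 genes Ccnd1 alone had none.

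The other D-type cyclins did not pass the threshold with either peptide. Ccnd2, which can replace Ccnd1 as a partner of CDK4 and CDK6, stood at 83.4, 77.3, 76.2 and 78.0 CPM with AngII. It stood at 77.5, 76.9, 74.5 and 74.7 CPM with AngII+HNG and at 78.8, 83.4, 72.7 and 78.7 CPM with AngII+MOTS-c. The 3 treatments overlapped throughout. HNG gave 0.966 times the AngII level (95% interval 0.908 to 1.03, edgeR adjusted p = 0.556) and MOTS-c 0.997 times (0.934 to 1.06, edgeR adjusted p = 0.997). The log2 difference with HNG was -0.050, and -0.043 without AngII+HNG replicate 3.

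Ccnd3, the D-type cyclin with the highest length-scaled level, was at 166, 179, 169.7 and 161 CPM with AngII. It was at 166, 176, 185 and 159.7 CPM with AngII+HNG and at 166, 168, 170.1 and 153 CPM with AngII+MOTS-c. The groups overlapped again, and AngII+HNG replicate 3 was the highest library of all 12. The ratio to AngII was 1.02 with HNG (95% interval 0.945 to 1.10, edgeR adjusted p = 0.827) and 0.973 with MOTS-c (0.915 to 1.04, edgeR adjusted p = 0.943). Without AngII+HNG replicate 3 the log2 difference with HNG was -0.010 in place of 0.028.

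**Figure D1:**
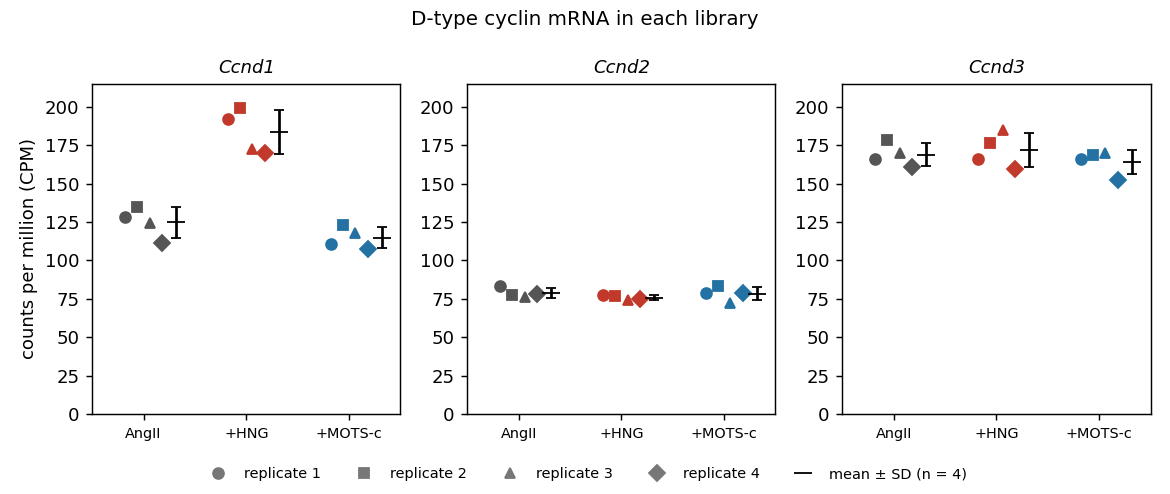
CPM (vertical axis, from 0) of Ccnd1, Ccnd2 and Ccnd3 in each of the 12 libraries, with 4 symbols per treatment for the replicates and a bar for the mean and SD beside them. For Ccnd1 the AngII+HNG libraries (170.1 to 199 CPM) sit above all others (108 to 135 CPM), while the treatments overlap for Ccnd2 and Ccnd3.

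With Ccnd1 higher, its share of the D-type cyclin mRNAs was higher as well. FPKM divides each count by gene length and library total, so levels of different genes can be set side by side on this scale. The deposited FPKM were not in a fixed proportion to CPM for every gene. Cdkn2b was at 33.4 and 33.2 CPM in AngII replicates 2 and 3 but at 14.4 and 14.5 FPKM. Ccnd1 made up 18.8 ± 0.860% of the summed D-type cyclin FPKM with AngII, 25.5 ± 1.45% with AngII+HNG and 17.9 ± 0.531% with AngII+MOTS-c (SD, n = 4 each). The sum of the 3 cyclins ran from 157 to 172 FPKM with AngII, from 172 to 189 with AngII+HNG and from 154 to 169.5 with AngII+MOTS-c. These shares and sums contain the Ccnd1 difference itself and add no separate measurement of it.

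Cdk4, the catalytic partner of the D-type cyclins, had the highest length-scaled level of the 10 genes. Its level was 145, 152, 154 and 141 CPM with AngII. It was 150.0, 160.0, 178 and 153 CPM with AngII+HNG and 152, 143, 146 and 139 CPM with AngII+MOTS-c. All 4 AngII+HNG libraries lay above the AngII mean of 148 CPM, but the groups overlapped, and AngII+HNG replicate 3 stood above the rest. Against AngII, the ratio was 1.08 with HNG (95% interval 0.999 to 1.18) and did not pass the threshold (edgeR, adjusted p = 0.255, unadjusted p = 0.0529). Without AngII+HNG replicate 3 the log2 difference went from 0.12 to 0.061. With MOTS-c the ratio was 0.980 (0.926 to 1.04, edgeR adjusted p = 0.960).

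Cdk6, the second kinase that D-type cyclins activate, was at 82.8, 76.1, 74.9 and 68.9 CPM with AngII. It was at 80.6, 80.3, 64.6 and 77.5 CPM with AngII+HNG and at 76.5, 78.4, 72.7 and 72.0 CPM with AngII+MOTS-c. The lowest of the 12 values was that of AngII+HNG replicate 3, the library in which Cdk4 was highest. Set against AngII, it was 1.00 with HNG (95% interval 0.900 to 1.12, edgeR adjusted p = 0.988) and 0.991 with MOTS-c (0.918 to 1.07, edgeR adjusted p = 0.983). Without AngII+HNG replicate 3 the log2 difference with HNG was 0.071, also short of the threshold (edgeR, adjusted p = 0.512, the lowest of 18 alternatives, in which it reached 0.998). On the FPKM scale Cdk4 supplied 93.8% of the 2 kinases' sum with AngII, 94.2% with AngII+HNG and 93.7% with AngII+MOTS-c.

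Of the CIP/KIP inhibitors, Cdkn1a (p21) is the one that p53 induces after damage or stress. It was at 55.7, 57.2, 46.3 and 45.2 CPM with AngII, at 56.1, 61.1, 62.7 and 51.1 CPM with AngII+HNG and at 51.8, 52.7, 50.4 and 46.7 CPM with AngII+MOTS-c. The AngII libraries fell into a pair near 56 CPM and a pair near 46 CPM, and the distance between these pairs was wider than that between the AngII and AngII+HNG means. Set against AngII, it was 1.13 with HNG (95% interval 0.995 to 1.29, edgeR adjusted p = 0.268, unadjusted p = 0.0576) and 0.986 with MOTS-c (0.885 to 1.10, edgeR adjusted p = 0.983). The log2 difference with HNG was 0.18, and 0.13 without AngII+HNG replicate 3.

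Cdkn1b (p27), which accumulates in resting cells, was at 75.5, 77.9, 81.1 and 81.5 CPM with AngII. It was at 76.5, 79.9, 74.8 and 79.5 CPM with AngII+HNG and at 79.5, 82.9, 81.4 and 74.3 CPM with AngII+MOTS-c. Its highest library was 1.12 times its lowest over all 12, the narrowest range of the 10 genes. Against AngII, the ratio was 0.985 with HNG (95% interval 0.925 to 1.05, edgeR adjusted p = 0.838) and 1.01 with MOTS-c (0.948 to 1.07, edgeR adjusted p = 0.984). The log2 difference with HNG was -0.022, and -0.0054 without AngII+HNG replicate 3.

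Cdkn1c (p57), an imprinted gene that restrains growth in development, was the least abundant of the 10, with 154 to 334 counts in a library. It was at 6.25, 6.85, 5.23 and 8.91 CPM with AngII, at 5.48, 6.71, 5.65 and 8.01 CPM with AngII+HNG and at 5.36, 7.14, 6.80 and 6.52 CPM with AngII+MOTS-c. Within the AngII group the highest library was 1.70 times the lowest, a wider spread than between any group means. The ratio to AngII was 0.952 with HNG (95% interval 0.746 to 1.21, edgeR adjusted p = 0.869) and 0.947 with MOTS-c (0.761 to 1.18, edgeR adjusted p = 0.971), the widest intervals of the group. Omission of AngII+HNG replicate 3 took the log2 difference with HNG from -0.071 to -0.013.

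The INK4 inhibitor Cdkn2b (p15), which TGF-β induces in many cell types, was at 35.1, 33.4, 33.2 and 32.4 CPM with AngII. It was at 33.8, 33.9, 29.7 and 29.9 CPM with AngII+HNG and at 34.7, 29.2, 35.1 and 30.5 CPM with AngII+MOTS-c. In both peptide groups a pair of libraries lay within the AngII range or just above it and a pair below it. Against AngII, the ratio was 0.951 with HNG (95% interval 0.871 to 1.04, edgeR adjusted p = 0.540) and 0.965 with MOTS-c (0.880 to 1.06, edgeR adjusted p = 0.952). Omission of AngII+HNG replicate 3, the lowest of its group, took the log2 difference with HNG from -0.073 to -0.044.

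Cdkn2c (p18), the other INK4 gene of the group, was at 10.5, 10.3, 10.5 and 8.93 CPM with AngII. It was at 9.81, 10.9, 11.9 and 9.98 CPM with AngII+HNG and at 10.8, 10.9, 8.97 and 9.77 CPM with AngII+MOTS-c. The treatments overlapped, with AngII replicate 4 apart from the other AngII libraries. The ratio to AngII was 1.06 with HNG (95% interval 0.926 to 1.21, edgeR adjusted p = 0.673) and 1.01 with MOTS-c (0.889 to 1.15, edgeR adjusted p = 0.992). Omission of AngII+HNG replicate 3, the highest of the 12 libraries, took the log2 difference with HNG from 0.085 to 0.025.

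**Figure D2:**
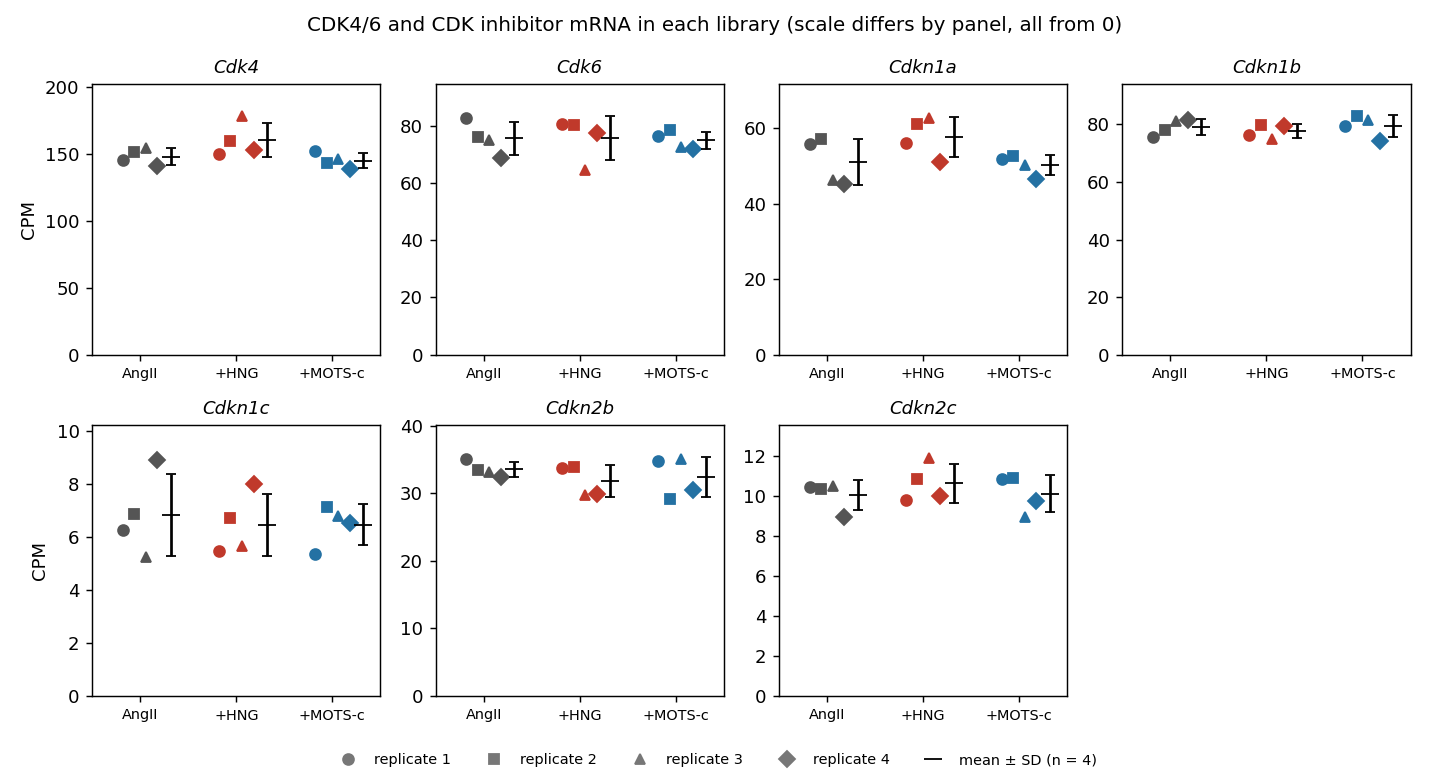
CPM (vertical axes, each from 0 and with its own scale) of Cdk4, Cdk6 and the 5 inhibitors in each of the 12 libraries, with symbols for the replicates and a bar for the mean and SD of 4 libraries. The treatments overlap in every panel, and Cdk4 is highest (178 CPM) and Cdk6 lowest (64.6 CPM) in AngII+HNG replicate 3.

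Counted over the group, 1 of 10 genes was called higher with HNG and 0 lower. In that comparison 3.40% of all genes tested were called higher and 2.58% lower, so the count itself does not set the group apart, and the result is one about Ccnd1. At an unadjusted p below 0.05 the count was again 1 of 10, against 20.3% of all genes. With MOTS-c 0 of 10 genes were called by edgeR, against 0.00690% of all genes, and DESeq2 and limma also called 0. The groups of 0 of 10 genes were without overlap, against 3.44% of all genes. At an unadjusted p below 0.05 there were 0 of 10, against 5.05% of all genes. The median log2 difference of the 10 genes was 0.015 with HNG, beside 0.0043 over all genes tested, and -0.024 with MOTS-c, beside -0.00076. Both comparisons use the same AngII libraries.

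**Figure D3:**
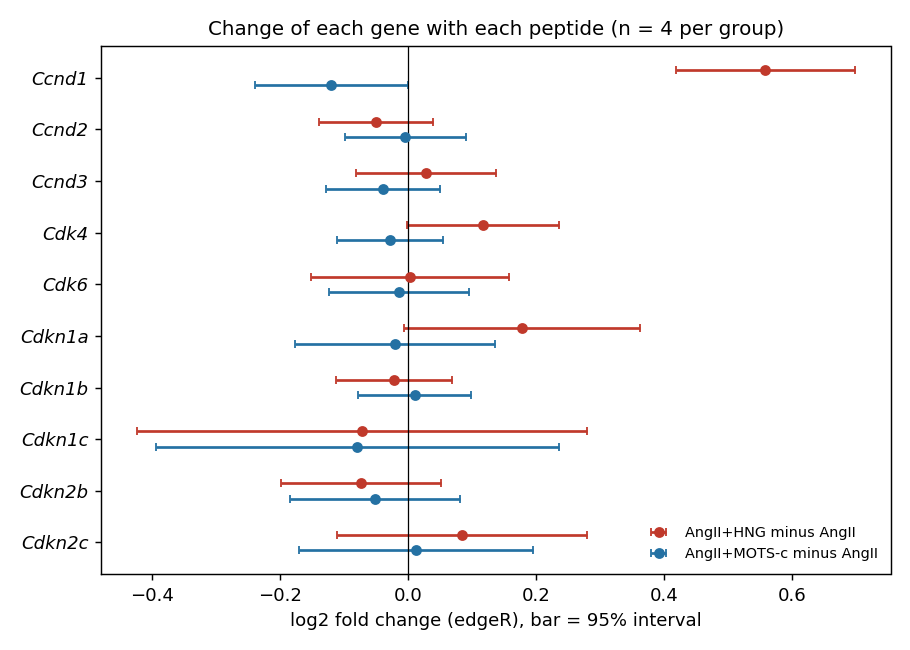
Log2 fold change against AngII (horizontal axis) of each of the 10 genes with HNG and with MOTS-c, as points with 95% intervals from the edgeR fits of 4 libraries per group. Ccnd1 with HNG (0.56) is the point whose interval lies clear of 0, and the interval of Ccnd1 with MOTS-c (-0.12) reaches 0.

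The order of the 10 genes by length-scaled level was much the same in the 3 treatments. Over all 12 libraries the mean was 105 FPKM for Cdk4, 81.8 for Ccnd3, 52.5 for Ccnd2, 35.5 for Ccnd1 and 31.4 for Cdkn1b. It was 25.3 FPKM for Cdkn1a, 14.3 for Cdkn2b, 6.85 for Cdkn2c, 6.79 for Cdk6 and 3.16 for Cdkn1c. The neighbours Ccnd2 and Ccnd1, Ccnd1 and Cdkn1b, Cdkn1b and Cdkn1a, and Cdkn2c and Cdk6 overlapped over the 12 libraries, while the ranges of the other neighbours were separate. Cdk4 stood above 96.8% of the 18384 genes with a value above 0, and Cdkn1c above 46.5%.

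The place of Ccnd1 depended on the treatment. With AngII it ran from 27.7 to 33.7 FPKM and overlapped with Cdkn1b (30.1 to 32.3), and the same held with AngII+MOTS-c, where it ran from 26.9 to 31.0 against 29.4 to 33.4 for Cdkn1b. With AngII+HNG it ran from 43.2 to 50.5 FPKM, clear of Cdkn1b (30.1 to 32.1) and below Ccnd2 (50.9 to 52.6). Its ratio to Ccnd2 on this scale was 0.591 ± 0.050 with AngII, 0.899 ± 0.0549 with AngII+HNG and 0.546 ± 0.0407 with AngII+MOTS-c (SD, n = 4 each). The summed FPKM of the 5 inhibitors was 80.1 ± 2.44, 83.2 ± 2.90 and 79.9 ± 3.60 in the same order, with overlapping ranges.

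**Figure D4:**
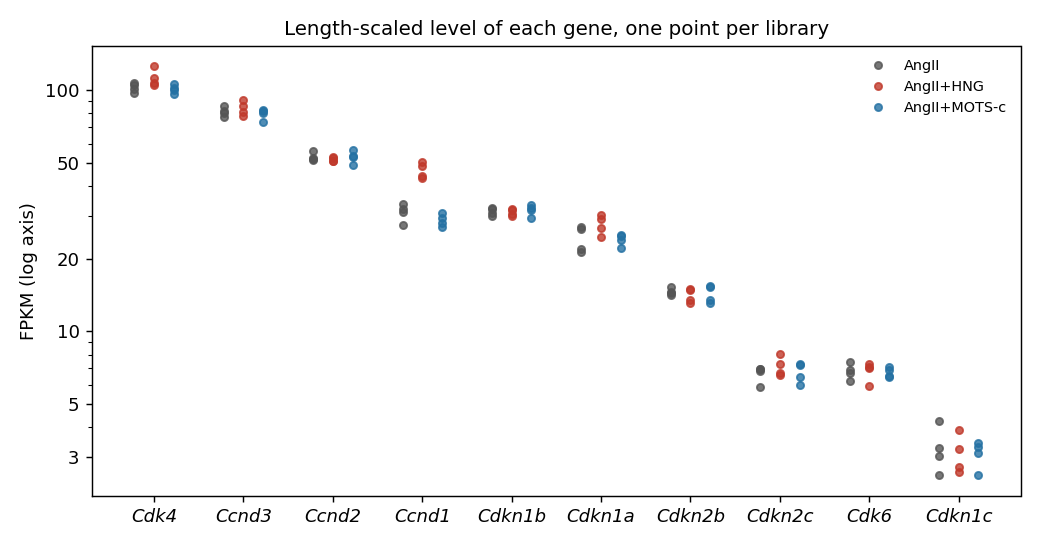
FPKM (vertical log axis) of the 10 genes, ordered by their mean over 12 libraries, with 1 point per library and the treatments side by side. The genes run from Cdk4 (mean 105 FPKM) to Cdkn1c (3.16), and Ccnd1 is the one whose AngII+HNG points (43.2 to 50.5) stand apart from its other points.

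The genes whose pattern over the 12 libraries was most like that of Ccnd1 were Klf4, Sulf2, Prelp, Ece1 and Mgmt. The measure was Pearson's r of log2 CPM among the 12196 genes whose mean reached 1 CPM, and r was 0.986 for Klf4, 0.970 for Sulf2, 0.965 for Prelp, 0.963 for Ece1 and 0.962 for Mgmt. These values mostly follow the distance between the AngII+HNG libraries and the other 8, which did not overlap for any of the 5, and the genes share libraries and depth, so r is a description only. Klf4, a zinc finger transcription factor, went from a mean of 94.8 CPM with AngII to 122 CPM with AngII+HNG (log2 0.37, edgeR adjusted p = 7.36e-04) and was at 88.5 CPM with AngII+MOTS-c. Sulf2, a sulfatase that trims heparan sulfate outside the cell, went from 141 to 183 CPM (log2 0.38, edgeR adjusted p = 2.02e-04). Prelp, a proteoglycan of the extracellular matrix, went from 75.1 to 114 CPM (log2 0.61, edgeR adjusted p = 9.65e-06), a larger change than that of Ccnd1. Ece1, the protease that activates endothelin, had the smallest change of the 5, from 154 to 173 CPM (log2 0.17, edgeR adjusted p = 0.0279). This call was lost in 8 of 18 alternatives, with adjusted p up to 0.108, including the omission of AngII replicate 1, 3 or 4 or of AngII+HNG replicate 1 or 2. The DNA repair enzyme gene Mgmt went from 22.4 to 29.3 CPM (log2 0.40, edgeR adjusted p = 0.0117). A gene high in r with Ccnd1 had to be high with HNG, so these calls follow from the choice. With MOTS-c 0 of the 5 passed the threshold in edgeR, with adjusted p from 0.924 to 0.971.

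**Figure D5:**
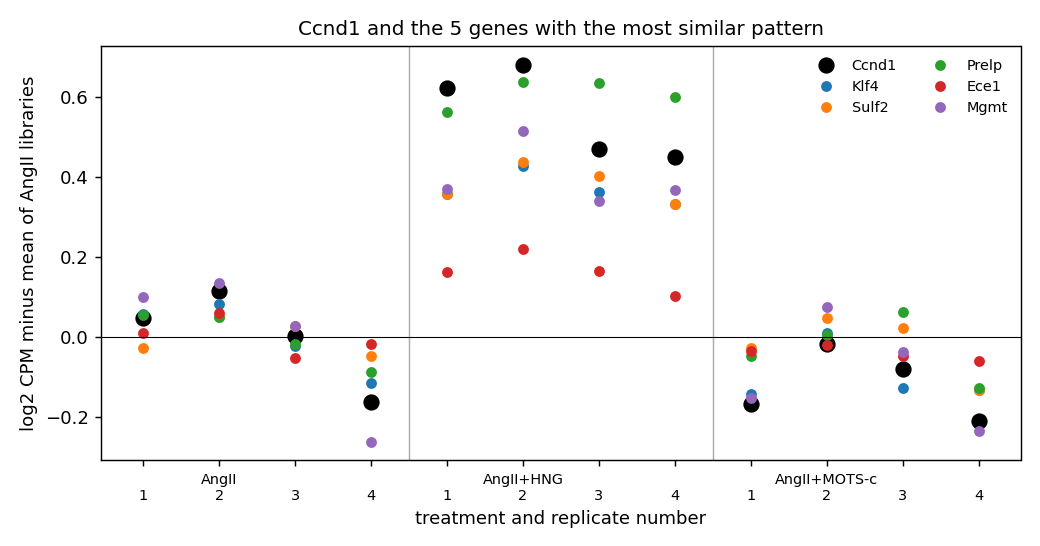
Log2 CPM of Ccnd1 and its 5 most similar genes in each library, minus the gene's mean over the AngII libraries (vertical axis), by treatment and replicate number. All 6 genes lie above their AngII mean in the 4 AngII+HNG libraries and scatter around or below it in the AngII+MOTS-c libraries.

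Genes up- and downstream of the D-type cyclins were examined next. A list of 39 other genes of the G1/S pathway held E cyclins and Cdk2, the retinoblastoma family, E2F and DP factors, the CDK-activating kinase, ubiquitin ligase subunits that degrade cyclins and inhibitors, and MuvB subunits. It also held the INK4 genes Cdkn2a and Cdkn2d, and Cdc25a, Cdc37, Gsk3b and Cryab. With HNG 0 of 39 were called by edgeR, against 5.98% of all genes, and 6 had an unadjusted p below 0.05, against 20.3%. The median log2 difference was -0.010. E2f4, a repressive E2F of resting cells, had the smallest p, at 42.7 ± 0.481 CPM with AngII and 47.1 ± 1.16 with AngII+HNG (log2 0.15, edgeR adjusted p = 0.0621). Its groups did not overlap, as for 4 of the 39 genes, against 13.6% of all genes. E2f4 passed the threshold in DESeq2 (adjusted p = 0.0480) and in limma on FPKM (adjusted p = 0.0336 with a pseudocount of 1), and its adjusted p over 18 alternatives ran up to 0.162. E2f3, an activating E2F, was at 24.3 ± 2.11 CPM with AngII and 21.1 ± 1.22 with AngII+HNG (log2 -0.20, edgeR adjusted p = 0.126). Cdkn2a, an INK4 gene of the list named here after its values were seen, was at 2.04 CPM with AngII and 2.60 with AngII+HNG (log2 0.35, edgeR adjusted p = 0.418), and its log2 difference was 0.14 without AngII+HNG replicate 3. Cdkn2d, the other INK4 gene of the list, was also named late, with a log2 difference of 0.058 with HNG (edgeR adjusted p = 0.818).

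With MOTS-c 0 of the 39 genes were called by edgeR and by DESeq2, against 0.00690% of all genes in edgeR, and 3 had an unadjusted p below 0.05, against 5.05%. The smallest p belonged to Ambra1, the adaptor through which D-type cyclins are ubiquitinated, at 28.8 ± 1.07 CPM with AngII and 31.6 ± 0.955 with AngII+MOTS-c (log2 0.13, edgeR adjusted p = 0.924). Rbbp4, a histone-binding protein of the MuvB complex, followed at 89.2 ± 1.22 and 84.7 ± 1.70 CPM (log2 -0.075, edgeR adjusted p = 0.924).

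Cdkn1a is a target of p53, and 23 other p53 target genes were measured with it. With HNG 1 of 23 was called higher and 1 lower, against 3.40% and 2.58% of all genes, and 6 had an unadjusted p below 0.05, against 20.3%. Eda2r, a death receptor of the TNF receptor family, went from 35.3 ± 2.51 to 45.0 ± 2.09 CPM (log2 0.35 with a standard error of 0.059, edgeR adjusted p = 0.00408). Plk2, a polo-like kinase, went from 128 ± 5.10 to 110.5 ± 3.84 CPM (log2 -0.21 with a standard error of 0.042, edgeR adjusted p = 0.0115). The called genes moved in opposite directions, and the median log2 difference of the list was 0.038. Eda2r and Plk2 were called in all 18 alternatives, with adjusted p up to 0.0190 and 0.0489, and without AngII+HNG replicate 3 their log2 differences were 0.38 and -0.23. With MOTS-c 0 of 23 were called by edgeR and by DESeq2, against 0.00690% of all genes in edgeR, and 1 had an unadjusted p below 0.05, against 5.05%. It was Tnfrsf10b, at 19.6 CPM with AngII and 21.3 with AngII+MOTS-c (log2 0.12, edgeR adjusted p = 0.924). Phlda3 came next, at 160.5 and 152 CPM (log2 -0.081, edgeR adjusted p = 0.924).

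Genes of DNA synthesis and mitosis lie downstream of the G1 checkpoint. Of 30 such genes 0 were called with HNG by edgeR, against 5.98% of all genes, and 2 had an unadjusted p below 0.05, against 20.3%. The median log2 difference of the list was 0.022, with 17 genes above 0 and 13 below. Mcm2 to Mcm7 were all above 0, from 0.051 to 0.16, and Ccna2 was the lowest at -0.13. This was looked up after the values were seen and was not tested. The summed level of the 30 genes was 1258 to 1420 CPM with AngII, 1334 to 1450 with AngII+HNG and 1242 to 1387 with AngII+MOTS-c, with overlap between all groups. Mcm2, a subunit of the replicative helicase, was at 50.4 ± 1.87 CPM with AngII and 56.3 ± 1.82 with AngII+HNG (log2 0.16, edgeR adjusted p = 0.0604). Its groups did not overlap, as for 2 of the 30 genes, against 13.6% of all genes. Mcm2 was called by DESeq2 (adjusted p = 0.0333), and its adjusted p over 18 alternatives ran up to 0.195. Cdt1, a licensing factor of replication origins, was at 10.3 ± 0.396 and 12.0 ± 1.18 CPM (log2 0.21, edgeR adjusted p = 0.175). With MOTS-c 0 of 30 were called by edgeR and by DESeq2, against 0.00690% of all genes in edgeR, and 0 had an unadjusted p below 0.05, against 5.05%. The smallest p belonged to the mitotic genes Birc5, at 12.2 CPM with AngII and 10.8 with AngII+MOTS-c (log2 -0.18, edgeR adjusted p = 0.924), and Aurka, at 14.5 and 13.2 CPM (log2 -0.13, edgeR adjusted p = 0.924).

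Markers of other cells also differed between AngII and AngII+HNG, and smooth muscle markers gave values below AngII with MOTS-c that did not pass the threshold in edgeR. The summed level of 12 macrophage markers was 264 to 319 CPM with AngII, 358 to 471 with AngII+HNG and 259 to 316 with AngII+MOTS-c, and 4 of the 11 tested were called higher with HNG, against 3.40% of all genes. They were Lyz2, the largest part of the sum with a mean of 102 CPM with AngII and 172 with AngII+HNG, and Cd68, Mrc1 and Ptprc. The log2 difference was below 0 for 3 of the 11, at -0.36 for Adgre1 and -0.43 for C1qc (edgeR adjusted p = 0.185 and 0.255) and -0.046 for C1qb, all named after their values were seen. The 9 endothelial markers summed to 79.8 to 89.8, 102 to 113 and 83.8 to 89.6 CPM in the same order, with 4 of 9 called higher, against the same 3.40%. That count was 2 without AngII replicate 1 or 2 or without AngII+HNG replicate 2 or 4, and 3 without AngII replicate 4 or AngII+HNG replicate 3. The 9 smooth muscle markers, which activated fibroblasts also express, summed to 7287 to 7567, 5793 to 6314 and 6866 to 7502 CPM, with 5 of 9 called lower with HNG, against 2.58% of all genes. With MOTS-c 0 of the 9 were called by edgeR and 1 by DESeq2, Cnn1, which was lower. Of the 9, 8 had a log2 difference below 0 with a median over the list of -0.11, 4 had an unadjusted p below 0.05, against 5.05% of all genes, and 2 did not overlap with AngII, against 3.44%. These were Cnn1, at a mean of 147 CPM with AngII and 128 with AngII+MOTS-c (edgeR adjusted p = 0.690), and Myh11, at 182 and 164 CPM (edgeR adjusted p = 0.924), named after their values were seen. The 9 fibroblast markers summed to 64801 to 69131, 62887 to 70931 and 64879 to 68764 CPM, with 1 of 9 called higher, Tcf21, against 3.40% of all genes. That count was 2 without AngII replicate 4 and 3 with a block by replicate number or library name. The 10 cardiomyocyte markers summed to 6064 to 6840, 6267 to 7354 and 5541 to 7194 CPM, also with 1 called higher, Tnni3, against the same share, a call lost without AngII replicate 1, 2 or 3 or with replicates 2 and 3 summed. With HNG 3 of the 10 cardiomyocyte markers had a log2 difference below 0. These were Myh7 (-0.15, edgeR adjusted p = 0.142), Pln (-0.034) and Myl4 (-0.021). Below 0 were also 3 of the 9 fibroblast markers and 1 endothelial marker, Emcn (-0.19, edgeR adjusted p = 0.699). Of the smooth muscle markers 1 was above 0, Des (0.023). Tcf21, Tnni3 and these genes were named only once their values were known. The 6 Schwann cell markers summed to 10.04 to 13.3 CPM over all libraries, with 0 of 5 called by edgeR or by DESeq2 in either comparison. At an unadjusted p below 0.05 there were 0 with HNG, against 20.3% of all genes, and 1 with MOTS-c, against 5.05% (Sox10, log2 0.62, edgeR adjusted p = 0.924, named after its values were seen). No marker was at 0 in all libraries, and the macrophage marker Cd163 did not exceed 0.547 CPM. Without AngII+HNG replicate 3 the upper end of the smooth muscle sum with AngII+HNG was 6150.2 CPM and the lower end of the fibroblast sum 65485 CPM, and the macrophage and endothelial ranges were the same. The part of these cells in the Ccnd1 difference was not tested, and in bulk RNA fewer cells of a type and less RNA per cell cannot be told apart.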

How the data were processed

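Total RNA of 12 samples was made into mRNA libraries and sequenced as paired-end reads on a DNBSEQ platform by the authors, who deposited the raw count of reads on each gene, and the matching FPKM, counts set relative to gene length and sequencing depth. The submitters' processing notes name HISAT2, Picard 1.41 and SAMtools 0.1.18. The genome build, the read counter and its strand setting are not given in the sources used here, so reads of overlapping or antisense genes may be shared and no coordinates are given. Of 22850 features, 22530 carry an annotated gene's identifier and 320 are transcripts assembled from reads.

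Groups and replicate numbers were taken from the sample titles. Counts were tested in R 4.3.3 with edgeR 4.0.16 (filterByExpr, TMM, glmQLFit, glmQLFTest) on the 8 libraries of each comparison, with Benjamini-Hochberg adjustment over all genes tested, a threshold of 0.05 and no fold limit. CPM are on the TMM scale of all 12 libraries, and log2 CPM used a prior count of 2. Standard errors were derived from the F statistic and intervals from its degrees of freedom. The edgeR step was also run on simulated counts with changes of known size. These counts held no shared replicate effect and no outlying library, and no result here rests on them. The self-written gene lists were counted and not tested as sets.

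The 10 genes and the lists were chosen with earlier results of these data known. Of each list, the genes called against AngII, or otherwise those with the 2 smallest p, were named, and the 5 genes most like Ccnd1 by r over 12 libraries. Cdkn2a and Cdkn2d were named after their values were seen. Trp53inp1, the 1 other p53 target listed, was not matched by symbol. Alternatives were DESeq2 1.42.0, RLE scaling, testing without the low-count filter or with a minimum of 10 counts per library, a single fit of the 12 libraries, blocks by replicate number or library name, replicates 2 and 3 summed (their library names carry the same number), limma 3.58.1 on log2 of FPKM plus 1 or plus 0.1 (minimum 0.1 FPKM in 4 libraries), and the omission of each library. Omission leaves groups of 3 and 4. No sequence is shown, since the reference tables used here hold no promoter of Ccnd1, Ccnd2, Cdk6 or Cdkn1c and no proteins.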

Additional observations from a re-analysis of the deposited data

Results flagged for a closer look

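In 1 of 30 combinations of gene and treatment, a library lay far from the other 3 when its gap to the nearest value was divided by the range of the group and set against Dixon's 95% critical value for 4 samples. For Cdkn2c with AngII the ratio was 0.888 on the log2 CPM scale, because replicate 4 was at 8.93 CPM and the other libraries lay between 10.3 and 10.5 CPM. Chance gives such a gap in about 1 in 20 groups of this size.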

How the results depend on the processing

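Across 18 alternatives, 1 of the 10 genes was called with HNG and 0 with MOTS-c each time, and 2 p53 targets with HNG each time. Ccnd1 kept its direction and call with HNG (log2 0.51 to 0.59, adjusted p 8.79e-14 to 0.00315), and its difference from MOTS-c was 0.63 to 0.71. The number of all genes called with HNG was 869, 1208 with DESeq2, 577 with replicates 2 and 3 summed, and 431 without AngII replicate 1, the lowest. With MOTS-c it was 1, and 3 with DESeq2 or without AngII+MOTS-c replicate 1. It was 0 when any other single library was left out. Among G1/S genes the count with HNG went from 0 to 1 with DESeq2, with limma on FPKM (both pseudocounts, E2f4) and with either block (Cryab, log2 -0.14, adjusted p = 0.0364 with the replicate block). Among S phase and mitosis genes it went from 0 to 1 with DESeq2 and with all 12 libraries in one fit (Mcm2, adjusted p = 0.0300). Of the cell type markers called with HNG, 5 of smooth muscle were called in all 18 alternatives, whereas the count ran from 3 to 6 for macrophages, 2 to 4 for endothelium, 0 to 2 for cardiomyocytes and 1 to 3 for fibroblasts. The replicate block left Ccnd1 at 0.56 with HNG and -0.12 with MOTS-c and gave 1111 calls over all genes with HNG. With it the standard error of Ccnd1 went from 0.064 to 0.037 with HNG and from 0.056 to 0.033 with MOTS-c. The edgeR adjusted p with this block was 1.99e-05 with HNG and 0.494 with MOTS-c. Deviations of same-numbered libraries had r from -0.028 to 0.12 between AngII and AngII+HNG, 0.020 to 0.13 between AngII and AngII+MOTS-c and -0.0096 to 0.25 between the peptides. In both directions a library matched its own number best for replicate 4 alone in the first, for 1, 3 and 4 in the second and for 2, 3 and 4 in the third. This is a hint of a shared replicate effect, but since not every pair had r over 0.1 the numbers were not read as pairs. Of 360 values of the 10 genes against AngII, 329 kept their direction and side of the threshold and 31 changed sign, all uncalled. With HNG, Cdk6 went to -0.00072 with RLE size factors and -0.00068 with DESeq2. With MOTS-c and a block by library name, Ccnd2 was 0.023, Cdk6 0.023, Cdkn1a 0.012 and Cdkn1b -0.013. Cdkn1b was -0.00015 with replicates 2 and 3 summed, and Ccnd2 0.0021 in both limma fits. With single libraries left out, the HNG values of Cdk6 ran from -0.041 to 0.071, of Cdkn1c from -0.19 to 0.084 and of Ccnd3 from -0.010 to 0.062. Those with MOTS-c ran from -0.035 to 0.029 for Ccnd2, -0.057 to 0.032 for Cdk6, -0.076 to 0.037 for Cdkn1a, -0.011 to 0.042 for Cdkn1b, -0.18 to 0.078 for Cdkn1c and -0.041 to 0.065 for Cdkn2c. Of 414 values of the other named genes, 397 kept direction and call. Ece1 lost its call in 8 (log2 0.15 to 0.19 with libraries left out). With MOTS-c, Sulf2 was 0.012 in both limma fits and -0.044 to 0.014 with libraries left out, and Prelp -0.056 to 0.0069. The cause of these shifts was not tested. Cdkn1c had the fewest counts, 154 to 334 in a library.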

Other observations

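Replicate 4 had the lowest value of its treatment in all 3 treatments for Ccnd1, Ccnd3 and Cdkn1a, and in 2 of 3 for Cdk4 and Cdk6, whereas it had the highest value in 2 of 3 for Cdkn1c. Ratios of Ccnd1 between libraries with the same number were 1.49, 1.48, 1.38 and 1.53 for AngII+HNG over AngII and 0.862, 0.913, 0.945 and 0.967 for AngII+MOTS-c over AngII, where 0.862 comes from libraries whose names carry different numbers.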
